A study of Mus musculus with 6 samples.

Results

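The 9 genes described here encode the enzymes with which heart muscle burns ketone bodies and branched-chain amino acids, together with the kinase and phosphatase that switch the central branched-chain enzyme off and on. They are Bdh1, Oxct1 and Acat1 for ketone bodies and Bcat2, Bckdha, Bckdhb, Bckdk, Ppm1k and Ivd for leucine, isoleucine and valine. They were taken by symbol, through the NCBI gene ID, from a table of 18019 gene IDs, and all 9 were present. All 9 also passed the filter on low values, a mean of at least 1 FPKM (fragments scaled to gene length and library size) over the libraries, which 11422 genes passed.

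Hearts of wild-type (WT) mice were sampled 8 weeks after transverse aortic constriction (TAC), which narrows the aorta and loads the left ventricle with pressure. In the VNS-TAC group, 3 libraries, the virus rAAV-ChAT-hChR2[H134R]-GFP was delivered to the dorsal vagal motor nucleus, so that light could activate neurones that use the promoter of choline acetyltransferase. The columns of this group are named X10Hz_TAC. In the Ctrl-TAC group, 3 libraries, the injected virus was rAAV-ChAT-GFP, which carries the fluorescent protein without the channel. Both groups had TAC, so no comparison with an unloaded heart is made here. The labels used here do not give strain, sex or age, and their treatment field names VNS in either group, so groups follow the sample titles. The labels do not say that each library came from its own animal, so p-values measure the spread between libraries, which may be partly technical.

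Ketone bodies made by the liver reach heart muscle through monocarboxylate transporters. In mitochondria Bdh1 oxidises beta-hydroxybutyrate to acetoacetate, Oxct1 attaches coenzyme A to it, and Acat1 splits the product into acetyl-CoA. Branched-chain amino acids lose their amino group to Bcat2, and the keto acids that result are decarboxylated by the branched-chain keto acid dehydrogenase (BCKDH) complex, built from Bckdha, Bckdhb, Dbt and Dld. Bckdk phosphorylates and inactivates that complex and Ppm1k removes the phosphate. The failing heart is known for taking up more ketone bodies and for burning branched-chain amino acids slowly.

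Depth, estimated from the steps between the lowest values, was about 14200000 to 16800000 fragments per library, and roughly 800 fragments or more stood behind the lowest member value. The heart label fitted the cardiomyocyte markers, whose 12 genes summed to between 55720 and 87568 FPKM in VNS-TAC and between 65960 and 68393 FPKM in Ctrl-TAC. The VNS-TAC libraries resembled each other less (correlations across genes of 0.941 to 0.979) than the Ctrl-TAC libraries did (0.988 to 0.992). VNS-TAC 3 was the highest of the 6 libraries for 32% of genes and the lowest for 26.5%. VNS-TAC 1 was the lowest for 37.7%, and its deviations followed the GC content of genes (Spearman correlation across genes 0.548, against -0.418 to 0.02 in the other 5). Results of the members that rest on either library are given below without it, as are some results of other genes.

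In VNS-TAC hearts Oxct1 was lower and Bckdhb and Bcat2 were higher than in Ctrl-TAC hearts in every library, and the other 6 genes overlapped between the groups. None of the 9 passed an adjusted p of 0.05 in limma, nor did any of the 11422 genes (0% called). By limma 1719 genes, 15.0% of those tested, had an unadjusted p under 0.05, as did 2 of the 9 members, Bckdhb and Oxct1; without Ctrl-TAC 1, or without Ctrl-TAC 2, the members numbered 0, and without Ctrl-TAC 3 they numbered 1. The values of the groups did not overlap for 25.4% of all genes and for 3 of the 9 members, a count near this background. The median log2 fold change was -0.01 over the 9 genes and -0.08 over all genes tested. In bulk tissue, fewer cells of a type and less RNA per cell cannot be told apart.

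**Figure D1:**
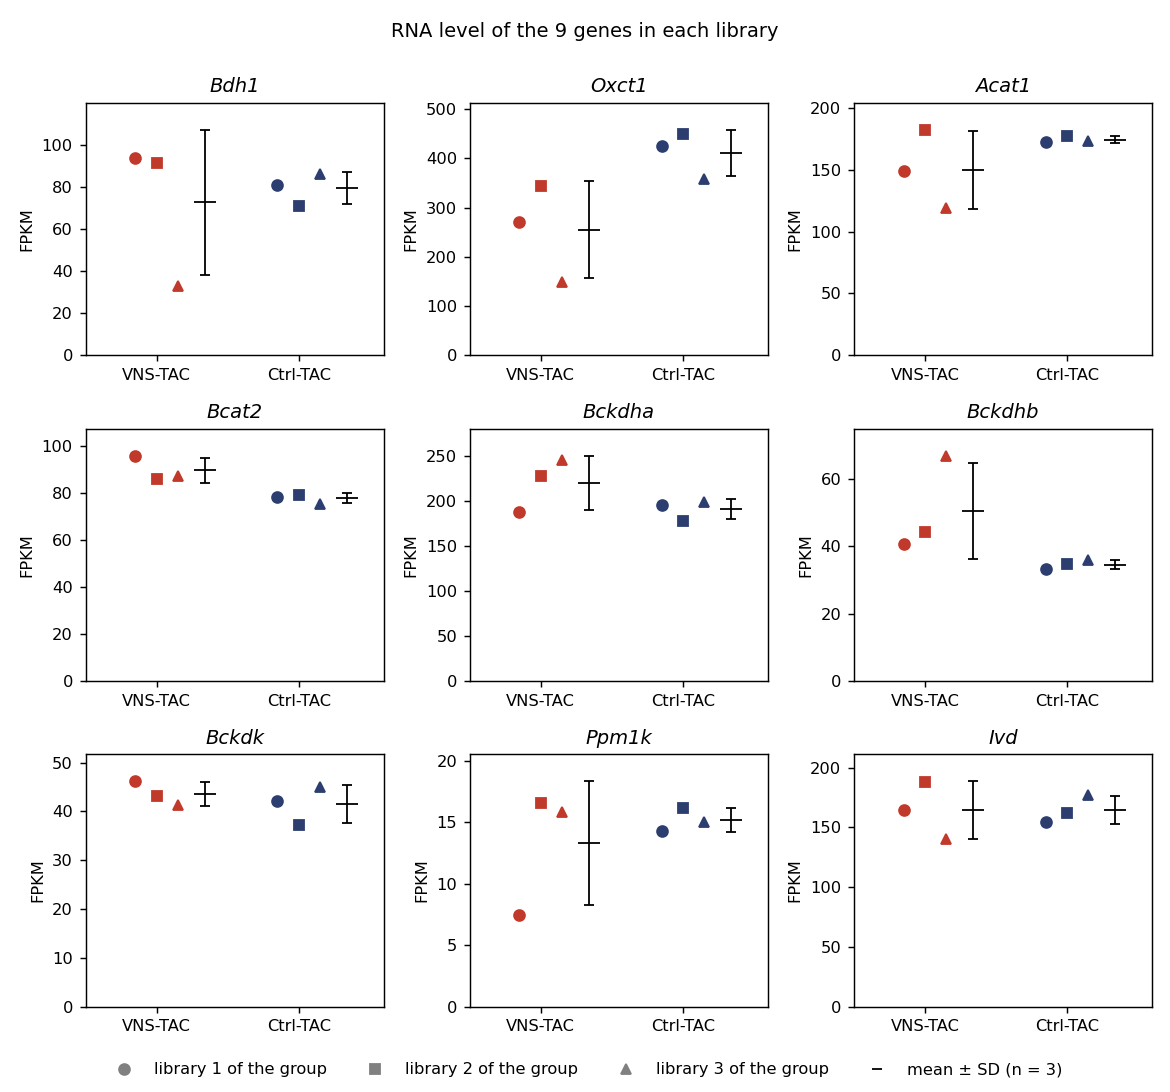
FPKM (vertical axis, from 0) of the 9 genes in each of the 3 VNS-TAC (red, left) and 3 Ctrl-TAC (blue, right) libraries, with the mean and SD beside each group. Oxct1 lies below all Ctrl-TAC libraries in VNS-TAC, Bckdhb and Bcat2 lie above them, and VNS-TAC 3 stands apart for Bdh1 at 32.78 FPKM.

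Oxct1 encodes succinyl-CoA:3-ketoacid CoA transferase, the step that commits acetoacetate to oxidation and that the liver lacks. Its RNA was the most abundant of the 9 in both groups. It stood at 270.28, 344.74 and 149.69 FPKM in libraries VNS-TAC 1 to 3, against 424.35, 449.83 and 358.60 FPKM in Ctrl-TAC 1, 2 and 3. All 3 VNS-TAC values lie below the lowest Ctrl-TAC value, VNS-TAC 2 by a narrow margin and VNS-TAC 3 by a wide one. The means were 255 ± 98.4 FPKM in VNS-TAC and 411 ± 47.1 FPKM in Ctrl-TAC (SD, n = 3 each), a ratio of 0.62. On the log2(FPKM + 1) scale the fold change was -0.76 ± 0.29 (SE), with a 95% interval from -1.45 to -0.08. Its unadjusted p in limma was 0.0335 and its adjusted p 0.296. A 2-sided exact permutation test over the 20 assignments of the libraries gave p = 0.1, the smallest that 3 against 3 allows. The value was -0.42 without VNS-TAC 3, -0.40 with array weights and -0.85 without VNS-TAC 1. With the trend on GC content removed, it was -0.65 and the groups overlapped.

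Because Oxct1, Bckdhb and Bcat2 were the members whose groups did not overlap, the 250 bases before their starts are shown, from RefSeq on GRCm38.p6. Of the 9 genes, 8 matched an entry, with 11 starts among them, and the first listed start is printed. Capitals mark matches on either strand to CACCC, the core of sites of Krüppel-like factors such as Klf15, to AGGTCA, the half-site of nuclear receptors, and to CCAAT. For Oxct1 the stretch is chr15:4026178-4026427 on the plus strand, before a gene that spans 4026428 to 4155344 on chromosome 15.
Oxct1: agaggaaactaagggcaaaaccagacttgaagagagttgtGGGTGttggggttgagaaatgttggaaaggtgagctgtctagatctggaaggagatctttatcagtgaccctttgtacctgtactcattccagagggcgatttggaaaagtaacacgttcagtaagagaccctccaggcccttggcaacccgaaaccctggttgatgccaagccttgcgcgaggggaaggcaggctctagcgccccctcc
It holds 1 match, to CACCC on the opposite strand, 210 bases before the start. CACCC was present in 52.0% of the 32851 promoter stretches of this length in the table, AGGTCA in 14.0% and CCAAT in 33.8%, and in 6, 2 and 4 of the 11 member stretches. A match is a description of these letters and not a measured site.

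Bdh1, the dehydrogenase that precedes Oxct1 on the path of beta-hydroxybutyrate, differed between the VNS-TAC libraries more than between the groups. Its level was 93.58, 91.17 and 32.78 FPKM in libraries VNS-TAC 1 to 3, against 80.84, 70.97 and 85.82 FPKM in Ctrl-TAC. VNS-TAC 1 and 2 lay above every control and VNS-TAC 3 far below every control. The log2 fold change was -0.27 ± 0.38 (SE; limma adjusted p = 0.741), and it was 0.22 without VNS-TAC 3, where the groups no longer overlapped. Bdh1 lies on chromosome 16, from 31422297 to 31458901.

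Acat1, the mitochondrial thiolase, closes the ketone path and also cleaves the last intermediate of isoleucine. It was at 148.82, 182.46 and 119.50 FPKM in libraries VNS-TAC 1 to 3, against 172.97, 177.65 and 173.14 FPKM in Ctrl-TAC. VNS-TAC 2 was above all controls and the other two below them. The log2 fold change of -0.24 ± 0.17 (SE) had a 95% interval from -0.62 to 0.15 (limma adjusted p = 0.506). It was -0.39 without VNS-TAC 2, where the groups did not overlap. It was -0.08 without VNS-TAC 3, -0.07 with the GC trend removed and -0.0028 with array weights. Within each library the ratio of Oxct1 to Acat1 was 1.82, 1.89 and 1.25 in VNS-TAC, against 2.45, 2.53 and 2.07 in Ctrl-TAC. This ratio, which a single scaling factor per library cannot move, did not overlap between the groups. The ratio of Oxct1 to Bdh1 overlapped, at 2.89, 3.78 and 4.57 in VNS-TAC against 5.25, 6.34 and 4.18 in Ctrl-TAC. Both ratios were chosen after the values were seen and were not tested.

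The other ketone body enzymes of the list were mostly scarce, with 5 of 10 tested, 2 higher and 3 lower, a median log2 fold change of -0.02, and none at an unadjusted p under 0.05. Over all genes tested 61.8% were lower and 15.0% had an unadjusted p under 0.05 in limma. Aacs, which uses acetoacetate for lipid synthesis in the cytosol, averaged 2.08 ± 0.408 FPKM in VNS-TAC and 2.80 ± 0.332 FPKM in Ctrl-TAC (SD, n = 3 each). Acss1, a mitochondrial acetyl-CoA synthetase, averaged 140 ± 18.7 FPKM in VNS-TAC and 115 ± 13.8 FPKM in Ctrl-TAC. Both overlapped between the groups, with limma adjusted p of 0.367 and 0.399.

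Bcat2, the mitochondrial aminotransferase that starts branched-chain breakdown, varied least between VNS-TAC libraries of the 3 members without overlap. It was at 95.81, 85.88 and 87.12 FPKM in libraries VNS-TAC 1 to 3, against 78.44, 79.27 and 75.21 FPKM in Ctrl-TAC. The lowest VNS-TAC library stood above the highest control. The means were 89.6 ± 5.41 FPKM in VNS-TAC and 77.6 ± 2.14 FPKM in Ctrl-TAC (SD, n = 3 each), a ratio of 1.15. The log2 fold change was 0.20 ± 0.11 (SE), with a 95% interval from -0.05 to 0.46, an unadjusted p of 0.102 and an adjusted p of 0.401 in limma. The groups stayed apart under all 18 alternatives, in which this value ran from 0.13 to 0.28. Bcat1, the cytosolic isoform, was under the filter in both groups, at 0.17 ± 0.0173 FPKM in VNS-TAC and 0.247 ± 0.0751 FPKM in Ctrl-TAC. Bcat2 lies on chromosome 7, from 45568967 to 45589710, and the stretch shown is chr7:45569903-45570152 on the plus strand.
Bcat2: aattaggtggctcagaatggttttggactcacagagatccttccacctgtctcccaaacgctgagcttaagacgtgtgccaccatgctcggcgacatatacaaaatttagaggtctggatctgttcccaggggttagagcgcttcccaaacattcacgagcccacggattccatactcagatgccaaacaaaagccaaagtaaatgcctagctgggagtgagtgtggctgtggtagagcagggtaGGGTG
This stretch lies wholly inside the annotated gene span, before a start that RefSeq lists within it. Its 1 match, to CACCC on the opposite strand, begins 5 bases before that start.

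Bckdhb encodes the beta subunit of the decarboxylase of BCKDH and had the lowest unadjusted p of the 9. It was at 40.57, 44.09 and 66.88 FPKM in libraries VNS-TAC 1 to 3, against 33.13, 34.80 and 35.77 FPKM in Ctrl-TAC. Each VNS-TAC library exceeded each control, VNS-TAC 3 by the most. The means were 50.5 ± 14.3 FPKM in VNS-TAC and 34.6 ± 1.34 FPKM in Ctrl-TAC (SD, n = 3 each), a ratio of 1.46. The log2 fold change of 0.50 ± 0.19 (SE) had a 95% interval from 0.05 to 0.95, an unadjusted p of 0.0331 and an adjusted p of 0.295 in limma, and the 2-sided exact permutation p was 0.1. Without VNS-TAC 3 it was 0.28, and without VNS-TAC 1 it was 0.64. Array weights, which gave VNS-TAC 2 a weight of 2.82 and the other 2 VNS-TAC libraries 0.246 and 0.247, put the adjusted p at 0.047, the only alternative in which a member passed. In that setting 1016 genes passed, against 0 as reported. Adjusted p ran from 0.047 to 0.711 over the 18 alternatives.

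For Bckdhb the stretch is chr9:83924887-83925136 on the plus strand, at the start of a gene that spans 83925111 to 84124240 on chromosome 9. Its last bases lie inside the annotated span.
Bckdhb: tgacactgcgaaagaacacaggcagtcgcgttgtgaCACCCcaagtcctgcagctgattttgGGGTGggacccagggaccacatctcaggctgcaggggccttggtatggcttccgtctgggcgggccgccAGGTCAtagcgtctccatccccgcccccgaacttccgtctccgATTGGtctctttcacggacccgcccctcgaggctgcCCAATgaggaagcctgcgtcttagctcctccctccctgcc
It holds 2 matches to CACCC, 1 on each strand, 2 to CCAAT, 1 on each strand, and 1 to AGGTCA, 119 bases before the start. Its GC content was 63.2%, the highest of the 11 member stretches, which ran down to 36.4% at a second start of the same gene.

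Bckdha encodes the alpha subunit, which carries the serines that Bckdk phosphorylates. It was at 187.26, 227.94 and 245.79 FPKM in libraries VNS-TAC 1 to 3, against 195.98, 178.24 and 198.43 FPKM in Ctrl-TAC. VNS-TAC 2 and 3 lay above all controls and VNS-TAC 1 among them. On the log2 scale its fold change was 0.20 ± 0.14 (SE; limma adjusted p = 0.51). It was 0.31 without VNS-TAC 1 and 0.12 without VNS-TAC 3, and with size factors or without VNS-TAC 1 the groups did not overlap. The gene lies on chromosome 7, from 25629852 to 25658782.

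The other subunits of the complex, Dbt (the transacylase core) and Dld (a lipoamide dehydrogenase shared with the pyruvate and oxoglutarate complexes), had lower means in VNS-TAC. Dbt was at 7.05, 14.72 and 14.57 FPKM in libraries VNS-TAC 1 to 3, against 17.53, 17.87 and 15.66 FPKM in Ctrl-TAC, with no overlap. Its log2 fold change of -0.52 ± 0.26 (SE; limma unadjusted p = 0.0839, adjusted p = 0.377) was -0.20 without VNS-TAC 1 and -0.27 with the GC trend removed. For Dbt the groups stayed apart in all 18 alternatives. Dld was at 90.71, 146.29 and 117.10 FPKM in VNS-TAC, against 145.81, 167.72 and 130.55 FPKM in Ctrl-TAC, and overlapped. Dbt and Dld have a GC content of 42.1% and 40.6%, and VNS-TAC 1, the library whose deviations rose most with GC content, was the lowest for both. The part of GC content in their values was not tested. The log2 fold change of Dld, -0.34 ± 0.19 (SE; limma adjusted p = 0.419), was -0.06 with that trend removed and -0.17 without VNS-TAC 1.

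Within each library the ratio of Bckdhb to Dbt was 5.75, 3.0 and 4.59 in libraries VNS-TAC 1 to 3, against 1.89, 1.95 and 2.28 in Ctrl-TAC. All VNS-TAC ratios exceed the controls, and those of Bckdha to Dbt did as well, at 26.6, 15.5 and 16.9 in VNS-TAC against 11.2, 9.97 and 12.7 in Ctrl-TAC. The ratio of Bckdha to Bckdhb overlapped, at 4.62, 5.17 and 3.68 in VNS-TAC against 5.92, 5.12 and 5.55 in Ctrl-TAC. These ratios compare RNA per length and not the make-up of the protein complex, were chosen after the values were seen, and were not tested. The GC trend was not removed from them. VNS-TAC 1, whose deviations rose most with GC content, had the highest ratio of Bckdha and of Bckdhb to Dbt. The GC content was 42.1% for Dbt, 57.9% for Bckdha and 50.3% for Bckdhb, and its part in the ratios was not tested.

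**Figure D2:**
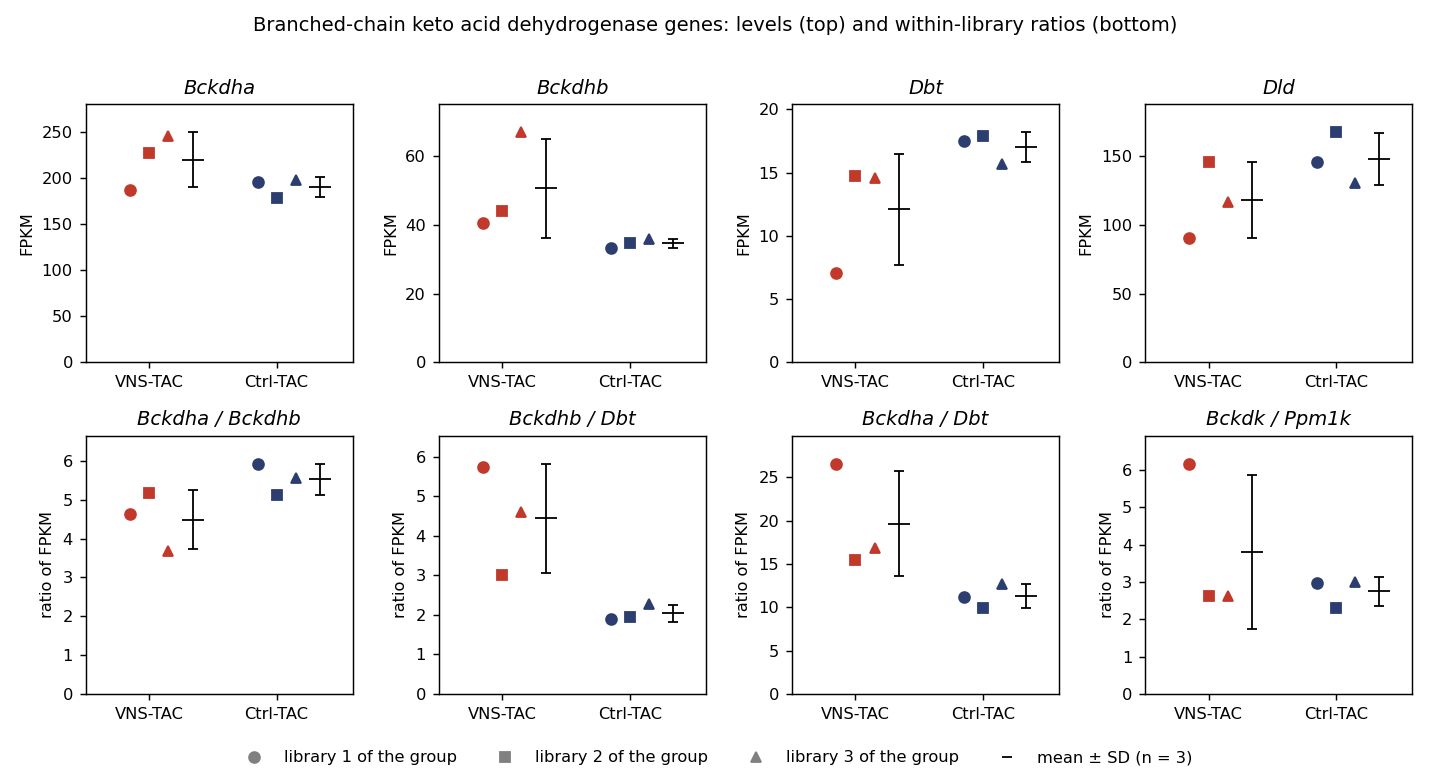
Top row, FPKM of the 4 genes of the BCKDH complex per library; bottom row, ratios of FPKM within each library, VNS-TAC red on the left and Ctrl-TAC blue on the right, with mean and SD (n = 3). Bckdhb is higher and Dbt lower in every VNS-TAC library, and their ratio is 3.0 to 5.75 in VNS-TAC against 1.89 to 2.28 in Ctrl-TAC.

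Bckdk, the kinase, differed little between libraries of either group. It was at 46.12, 43.19 and 41.25 FPKM in libraries VNS-TAC 1 to 3, against 42.21, 37.30 and 45.07 FPKM in Ctrl-TAC. The groups overlapped, and a log2 fold change of 0.07 ± 0.12 (SE) had a 95% interval from -0.21 to 0.35 (limma adjusted p = 0.794). The gene lies on chromosome 7, from 127904073 to 127909664.

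Ppm1k, the phosphatase that reactivates the complex, was the least abundant of the 9. It was at 7.48, 16.56 and 15.82 FPKM in libraries VNS-TAC 1 to 3, against 14.26, 16.20 and 15.05 FPKM in Ctrl-TAC. VNS-TAC 1 stood alone below the controls, and the other VNS-TAC libraries lay within or just above their range. Ppm1k's log2 fold change of -0.25 ± 0.27 (SE; limma adjusted p = 0.656) was 0.09 without VNS-TAC 1 and 0.04 with the GC trend removed. Ppm1k had the lowest GC content of the 9 genes, 39.9%, against up to 57.9% for Bckdha, and the part of GC content in its values was not tested. The ratio of kinase to phosphatase RNA was 6.17, 2.61 and 2.61 in VNS-TAC, against 2.96, 2.30 and 2.99 in Ctrl-TAC, so that VNS-TAC 1 alone was outside the range of the controls. Ppm1k lies on chromosome 6, from 57506502 to 57535552.

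Ivd, isovaleryl-CoA dehydrogenase, takes the next step of leucine breakdown after BCKDH. It was at 164.79, 188.31 and 140.33 FPKM in libraries VNS-TAC 1 to 3, against 154.35, 162.02 and 177.50 FPKM in Ctrl-TAC. The VNS-TAC values spanned those of the controls. On the log2 scale its fold change was -0.01 ± 0.14 (SE), with a 95% interval from -0.35 to 0.33 (limma adjusted p = 0.98), and 97.4% of all genes had a larger absolute fold change. Ivd lies on chromosome 2, from 118861959 to 118882909.

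**Figure D3:**
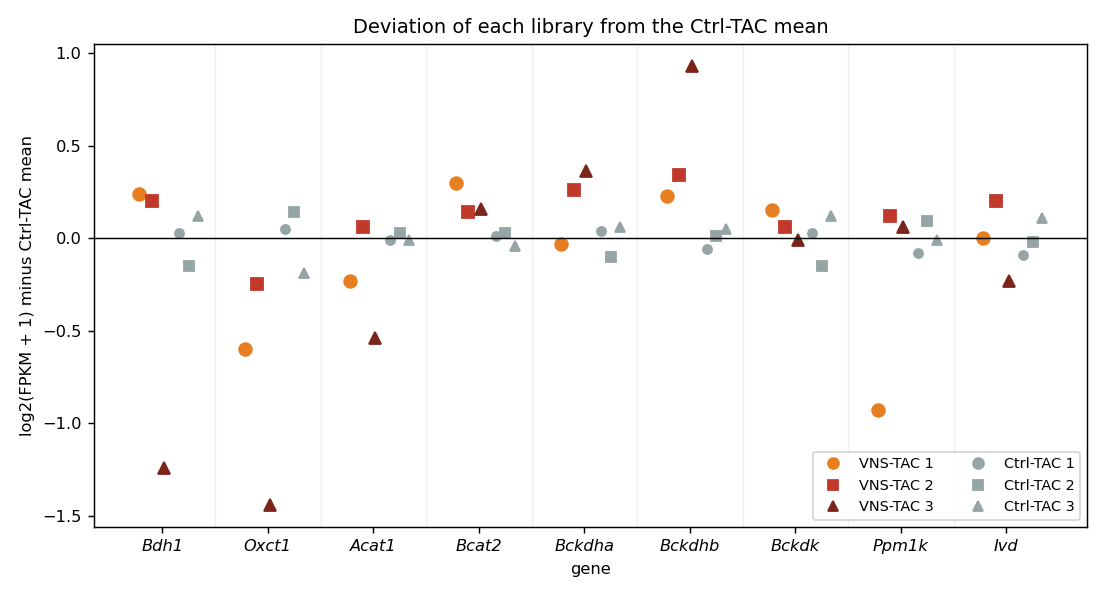
Deviation of each library from the Ctrl-TAC mean, on the log2(FPKM + 1) scale, for the 9 genes; coloured symbols are the VNS-TAC libraries and grey symbols the Ctrl-TAC libraries. VNS-TAC 3 reaches -1.24 for Bdh1, -1.44 for Oxct1 and 0.93 for Bckdhb, and VNS-TAC 1 reaches -0.93 for Ppm1k, while the controls stay between -0.19 and 0.14.

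The 3 VNS-TAC libraries therefore differed in which members were displaced. VNS-TAC 3 was the lowest of the 6 libraries for Bdh1, Oxct1, Acat1 and Ivd and the highest for Bckdha and Bckdhb. VNS-TAC 1 was the highest for Bdh1, Bcat2 and Bckdk and the lowest for Ppm1k. VNS-TAC 2 was the highest for Acat1, Ppm1k and Ivd and the lowest for none, and its member deviations ran from -0.25 to 0.34. Over all genes tested, VNS-TAC 1 was the highest for 19% and the lowest for 37.7%. The shares were 4.01% and 8.74% for VNS-TAC 2, and 32% and 26.5% for VNS-TAC 3. Beside these, the 15 markers of mitochondrial mass summed to 10931, 9789 and 7966 FPKM in VNS-TAC 1, 2 and 3, and to 8058, 8466 and 8357 FPKM in Ctrl-TAC. VNS-TAC 3 was thus the lowest in this sum, close to Ctrl-TAC 1, and in the sum of the cardiomyocyte markers, and VNS-TAC 1 the highest in both. Single cardiomyocyte markers did not all follow their sum. In VNS-TAC 3 Actc1 was the lowest of the 6 libraries, at 2666.55 FPKM, but Tnnt2 the highest, at 15153.78 FPKM. Pln and Ttn were lowest in VNS-TAC 1, at 1118.12 and 28.04 FPKM. The part of these markers in the member values was not tested.

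In order of level, Oxct1 came first in both groups, at 255 FPKM in VNS-TAC and 411 FPKM in Ctrl-TAC, and Bckdha second, at 220 and 191 FPKM. In Ctrl-TAC the libraries of Oxct1 did not overlap those of Bckdha, and in VNS-TAC they did. Acat1 and Ivd followed in either order and overlapped each other in both groups, as did Bdh1 and Bcat2. Bckdhb stood above Bckdk in VNS-TAC, at 50.5 against 43.5 FPKM with overlapping libraries. In Ctrl-TAC Bckdk was the higher, at 41.5 FPKM against 34.6 FPKM for Bckdhb, with no overlap. Ppm1k was last in both groups, at 13.3 FPKM in VNS-TAC and 15.2 FPKM in Ctrl-TAC, apart from all others.

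Of the further enzymes of branched-chain breakdown that were tested, 32% had a higher mean in VNS-TAC, near the 38.2% of all genes tested. Of 27 listed genes 25 were tested, 8 with a higher and 17 with a lower mean, against 61.8% lower over all genes, and the median log2 fold change was -0.16. None passed the adjusted threshold, and 2 were higher and 2 lower at an unadjusted p under 0.05, where the background was 3.79% higher and 11.3% lower. The groups did not overlap for 3 higher and 5 lower genes (background 8.01% and 17.4%). The median was -0.02 without VNS-TAC 3 and 0.01 with the GC trend removed, which put 13 of the 25 higher.

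On the isoleucine branch, Hsd17b10, the hydroxyacyl-CoA dehydrogenase before Acat1, was at 199.29, 192.33 and 264.32 FPKM in libraries VNS-TAC 1 to 3, against 147.52, 141.42 and 148.14 FPKM in Ctrl-TAC. The groups were far apart, with a log2 fold change of 0.57 ± 0.15 (limma unadjusted p = 0.00619, adjusted p = 0.232). On the valine branch, Hibch, which releases hydroxyisobutyrate from coenzyme A, was at 19.60, 32.03 and 18.68 FPKM in VNS-TAC, against 37.22, 40.40 and 34.94 FPKM in Ctrl-TAC. It differed the other way, with a log2 fold change of -0.70 ± 0.21 (limma unadjusted p = 0.0113, adjusted p = 0.247). Mlycd, malonyl-CoA decarboxylase, a gene of fatty acid metabolism kept on the list, was at 80.40, 73.05 and 85.38 FPKM in VNS-TAC, against 59.66, 57.82 and 56.67 FPKM in Ctrl-TAC. Its log2 fold change was 0.45 ± 0.11 (limma unadjusted p = 0.0049, adjusted p = 0.221). For these 3 genes the groups did not overlap and the unadjusted p was under 0.05 in all 18 alternatives. With array weights Hsd17b10 and Mlycd had adjusted p of 0.0251 and 0.0343 in limma. That setting gave most of the VNS-TAC weight to VNS-TAC 2, and 1016 of the 11422 genes passed in it.

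The remaining genes of the list without overlap are named because of their values. Pccb, a subunit of propionyl-CoA carboxylase, averaged 66.3 ± 1.18 FPKM in VNS-TAC and 60.0 ± 1.97 FPKM in Ctrl-TAC (SD, n = 3 each). Mmut, methylmalonyl-CoA mutase, which acts after it, averaged 17.6 ± 4.34 FPKM in VNS-TAC and 25.6 ± 1.8 FPKM in Ctrl-TAC, a log2 fold change of -0.54 ± 0.19 (limma unadjusted p = 0.0214, adjusted p = 0.264). Mmab, which makes the cobalamin cofactor of Mmut, averaged 13.7 ± 2.75 FPKM in VNS-TAC and 16.3 ± 0.262 FPKM in Ctrl-TAC. Mccc1, the carboxylase subunit next after Ivd on the leucine branch, averaged 34.4 ± 3.47 FPKM in VNS-TAC and 38.9 ± 0.892 FPKM in Ctrl-TAC. Its partner subunit Mccc2 overlapped, at 30.7 ± 4.77 FPKM in VNS-TAC and 30.1 ± 1.70 FPKM in Ctrl-TAC. Of the propionate and leucine genes named here, Mmut alone had an unadjusted p under 0.05, and its log2 fold change was -0.29 with the GC trend removed and -0.35 without VNS-TAC 1. Mmab was at -0.09 on that scale without VNS-TAC 3, and Mccc1 was at 0.05 with the GC trend removed. Mccc1 overlapped with size factors and with the GC or the length trend removed. Mmab overlapped with size factors, quantile normalization and the length trend removed, and Pccb at the same FPKM sum.

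**Figure D4:**
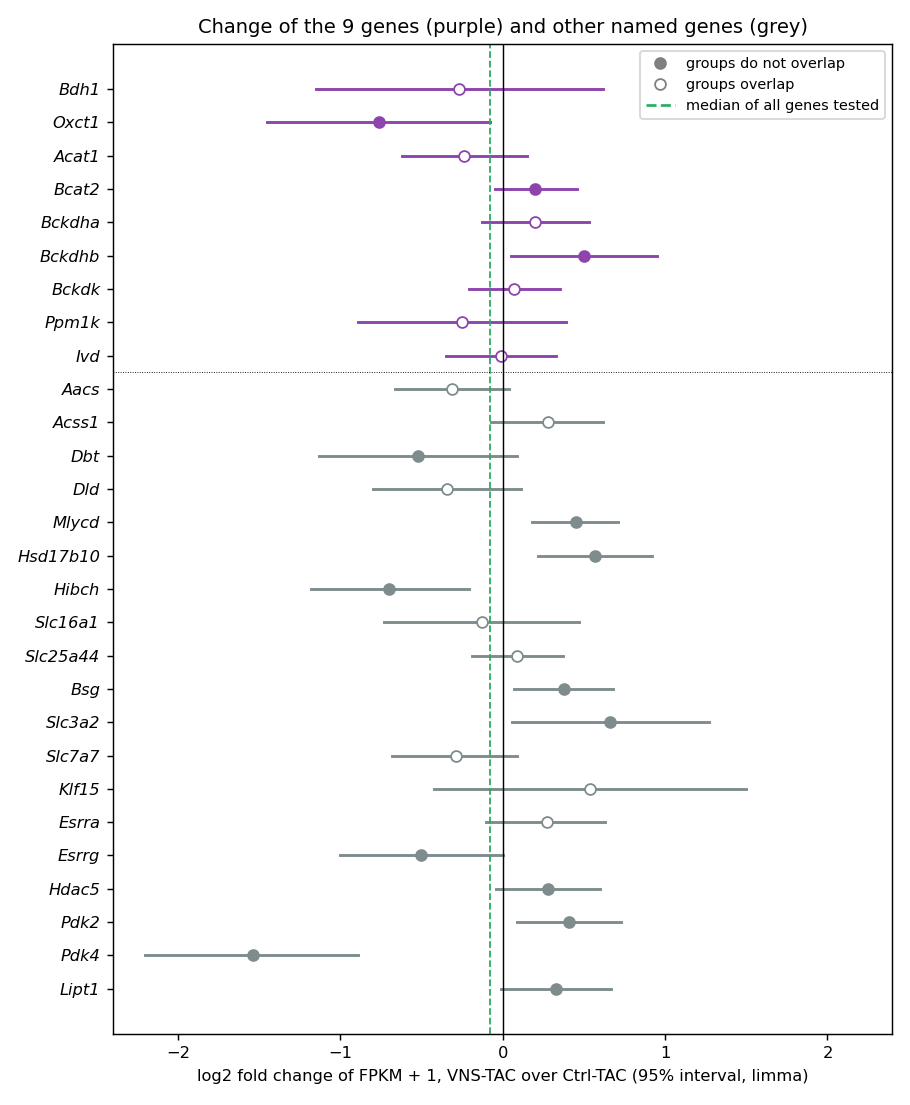
Log2 fold change of FPKM + 1, VNS-TAC over Ctrl-TAC, with the 95% interval from limma, for the 9 genes (purple) and other genes named by rule (grey); filled points mark groups that do not overlap and the dashed line the median of all genes tested, -0.08. Oxct1 lies at -0.76, Bckdhb at 0.50 and Bcat2 at 0.20, and Pdk4 at -1.54 is the farthest from 0.

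Of the 12 transporters, all tested, 6 had a higher and 6 a lower mean, against 61.8% lower over all genes, with a median log2 fold change of 0.04. By limma 2 were higher and 0 lower at an unadjusted p under 0.05, where the background was 3.79% higher and 11.3% lower. Slc16a1, the monocarboxylate transporter that carries ketone bodies, was at 80.72, 75.13 and 40.20 FPKM in libraries VNS-TAC 1 to 3, against 63.95, 66.45 and 75.46 FPKM in Ctrl-TAC. Its log2 fold change was -0.13 ± 0.26 and, as for Bdh1, VNS-TAC 3 was the lowest library and the value without it was 0.18. Bsg, the chaperone that brings Slc16a1 to the membrane, was at 1347.21, 1277.67 and 1238.89 FPKM in VNS-TAC, against 991.13, 1050.17 and 938.64 FPKM in Ctrl-TAC. Bsg did not overlap, with a log2 fold change of 0.38 ± 0.13 (limma unadjusted p = 0.0228, adjusted p = 0.268). Slc3a2, the heavy chain of the leucine exchanger, was at 31.24, 36.01 and 65.64 FPKM in VNS-TAC, against 27.46, 26.03 and 25.11 FPKM in Ctrl-TAC. It did not overlap either, with a log2 fold change of 0.66 ± 0.26 (limma unadjusted p = 0.036, adjusted p = 0.302) that was 0.35 without VNS-TAC 3. Slc25a44, the mitochondrial carrier of branched-chain amino acids, averaged 8.60 ± 0.347 FPKM in VNS-TAC and 8.02 ± 0.559 FPKM in Ctrl-TAC, with overlap. Slc7a7, an amino acid exchanger that pairs with Slc3a2, averaged 2.69 ± 0.305 FPKM in VNS-TAC and 3.55 ± 0.754 FPKM in Ctrl-TAC, also with overlap.

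Among 11 regulators, 3 had a higher and 8 a lower mean, and none reached an unadjusted p under 0.05 in limma. Over all genes tested 61.8% had a lower mean and 15.0% passed that threshold, so these counts do not set the regulators apart. Klf15, a transcription factor known to sustain branched-chain catabolic genes in mouse heart, was at 20.82, 42.84 and 75.68 FPKM in libraries VNS-TAC 1 to 3, against 24.81, 25.82 and 33.56 FPKM in Ctrl-TAC. VNS-TAC 2 and 3 lay above all controls and VNS-TAC 1 below all of them. Its log2 fold change of 0.54 ± 0.41 (limma adjusted p = 0.537) was 1.01 without VNS-TAC 1 and 0.10 without VNS-TAC 3. The nuclear receptor Esrrg was lower without overlap, at 5.45 ± 1.71 FPKM in VNS-TAC and 7.89 ± 0.521 FPKM in Ctrl-TAC (limma unadjusted p = 0.0507, adjusted p = 0.333). That receptor's log2 fold change of -0.50 was -0.26 without VNS-TAC 1 and -0.26 with the GC trend removed. Its relative Esrra averaged 114 ± 21.7 FPKM in VNS-TAC and 93.3 ± 4.20 FPKM in Ctrl-TAC, with overlap. For Esrra the log2 fold change of 0.27 was 0.12 without VNS-TAC 1. Hdac5, a histone deacetylase, averaged 42.4 ± 6.30 FPKM in VNS-TAC and 34.5 ± 1.52 FPKM in Ctrl-TAC, without overlap (limma adjusted p = 0.367), but with overlap at the same FPKM sum and with the GC trend removed. For Hdac5 the log2 fold change of 0.28 was 0.17 without VNS-TAC 3.

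BCKDH belongs to a family with the pyruvate and oxoglutarate dehydrogenases, and Bckdk is a relative of the pyruvate dehydrogenase kinases. Of 15 genes of these sister complexes and their lipoylation, 7 had a higher and 8 a lower mean, 1 each at an unadjusted p under 0.05. Over all genes 61.8% had a lower mean, and the background at that threshold was 3.79% higher and 11.3% lower. Pdk4, the kinase induced by fasting and fatty acids, was at 41.53, 93.56 and 64.85 FPKM in libraries VNS-TAC 1 to 3, against 159.17, 193.10 and 210.45 FPKM in Ctrl-TAC. The groups were far apart, with a log2 fold change of -1.54 ± 0.28, an unadjusted p of 7.38e-04 and an adjusted p of 0.179 in limma. Pdk2 was at 285.63, 286.61 and 349.93 FPKM in VNS-TAC, against 215.40, 223.75 and 251.54 FPKM in Ctrl-TAC, a log2 fold change of 0.41 ± 0.14 (limma unadjusted p = 0.019, adjusted p = 0.264). Lipt1, a lipoyl transferase, averaged 6.53 ± 0.919 FPKM in VNS-TAC and 4.97 ± 0.529 FPKM in Ctrl-TAC (limma adjusted p = 0.338).

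By Pearson correlation over the 6 libraries on the log2 scale, Acyp1 (r = 0.9962) and Cilp (r = 0.9941) were among the 3 genes most like Oxct1 of all genes tested. They were picked for this likeness, so the r values are a description with no p. Acyp1, an acylphosphatase, was at 13.18, 14.31 and 9.71 FPKM in libraries VNS-TAC 1 to 3, against 16.67, 16.90 and 14.85 FPKM in Ctrl-TAC. Cilp, a matrix protein, was at 11.26, 17.01 and 3.67 FPKM in VNS-TAC, against 29.36, 26.00 and 19.81 FPKM in Ctrl-TAC. Both share with Oxct1 the order of the VNS-TAC libraries and the lowest value in VNS-TAC 3.

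Markers of other cells and of tissue handling also differed between the libraries. The 5 tested neutrophil markers were all higher and did not overlap, where 8.01% of all genes were higher without overlap. That list summed to between 46.2 and 101 FPKM in VNS-TAC and between 1.83 and 5.36 FPKM in Ctrl-TAC. The 7 fibroblast markers were all lower on average, where 61.8% of all genes were lower. Their sums were 313 to 442 FPKM in VNS-TAC and 471 to 544 FPKM in Ctrl-TAC. Dcn was the largest part of each sum and overlapped, at 151.6, 240.79 and 387.71 FPKM in VNS-TAC 1 to 3. In Ctrl-TAC it was at 256.82 to 285.31 FPKM. Col1a1, Col1a2, Col3a1, Lum and Postn had their lowest value in VNS-TAC 3. The 5 haemoglobin and red cell markers summed to 1503, 310 and 25.1 FPKM in VNS-TAC 1, 2 and 3, and to between 183 and 578 FPKM in Ctrl-TAC. Adipocytes also burn branched-chain amino acids, and their 8 markers summed to between 381 and 642 FPKM in VNS-TAC and between 632 and 677 FPKM in Ctrl-TAC, most of it Fabp4, which endothelium also expresses. Of their defining markers, Lep was at 0.08 FPKM or less in all 6 libraries and Ucp1 was above 0.04 FPKM in VNS-TAC 2 alone, at 2.08 FPKM. Others were present and uneven: Cfd ranged from 2.30 to 16.95 FPKM in VNS-TAC and from 7.30 to 50.62 FPKM in Ctrl-TAC, and Adipoq from 0.16 to 3.28 FPKM in VNS-TAC and from 0.99 to 5.92 FPKM in Ctrl-TAC. Cidec and Plin1 likewise had their lowest value in VNS-TAC 3 and their highest in Ctrl-TAC 3. Cidea was higher without overlap, at 31.85 to 42.02 FPKM in VNS-TAC and 27.06 to 31.04 FPKM in Ctrl-TAC. Fabp4 was lower without overlap, at 336.44 to 573.71 FPKM in VNS-TAC and 585.81 to 612.3 FPKM in Ctrl-TAC. Of the 5 adipocyte markers tested 4 had a lower mean, against 61.8% of all genes. Of the 6 endothelial markers 5 had a lower mean, 2 of them at an unadjusted p under 0.05 in limma (background 11.3% lower). The 6 summed to 209 to 278 FPKM in VNS-TAC and 264 to 304 FPKM in Ctrl-TAC. Of 8 immediate early genes, which respond to the handling of tissue, 7 had a lower mean. By limma 4 of the 8 were lower at an unadjusted p under 0.05 (background 11.3%). Without overlap 3 were lower, Fosb, Egr2 and Atf3 (background 17.4%). The sum of the 8 was 203, 89.7 and 66.4 FPKM in libraries VNS-TAC 1 to 3, against 148, 186 and 181 FPKM in Ctrl-TAC. The part of these cells and of handling in the member values was not tested.

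**Figure D5:**
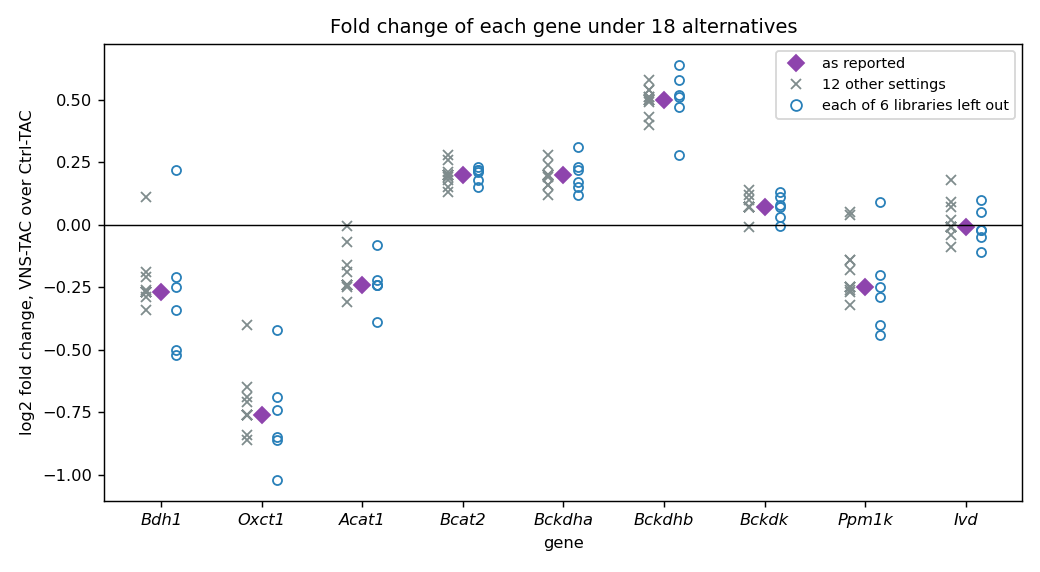
Log2 fold change of each of the 9 genes, VNS-TAC over Ctrl-TAC, as reported (diamonds), in 12 other settings (crosses) and with each of the 6 libraries left out (circles). Oxct1 stays between -1.02 and -0.40, Bckdhb between 0.28 and 0.64 and Bcat2 between 0.13 and 0.28, whereas Bdh1, Bckdk, Ppm1k and Ivd cross 0.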

How the data were processed

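Per the labels' protocols, oligo-dT beads selected polyadenylated RNA. The deposited table gives FPKM values to 2 decimals, per the file headers, for 18019 gene IDs in 6 columns. The submitters' processing notes list HISAT, featureCounts 1.5.0-p3, DESeq 1.8.3 and GRCm38 without giving roles, and the annotation behind the table is not given in the sources used here. VNS-TAC columns and sample titles are numbered 1 to 3, whereas the library names in the labels run from 4 to 6, so the table's numbers are used and no column is tied to a labelled sample. Symbols came from RefSeq GRCm38.p6 for 17890 IDs and GENCODE M21 for 15.

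Values were analysed as log2(FPKM + 1), which understates changes of low genes. The 11422 genes averaging 1 FPKM or more were compared with limma 3.58.1 in R 4.3.3 (intensity trend, 4 residual degrees of freedom, Benjamini-Hochberg adjustment, threshold 0.05), tested first on simulated data. Tables and figures used Python 3.11.15, pandas 2.3.3, numpy 2.4.6 and matplotlib 3.10.9. Depths are approximate and entered no test.

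The members and lists were chosen with earlier results of these data known. Named were the 9 members, the 3 genes of smallest p in each other list, a fixed set (among them Dbt, Dld, Slc16a1, Slc25a44 and Klf15) and the 3 genes most correlated with the member of largest change; some of the genes so named are not reported here. Alternatives were 2 pseudocounts, 2 filters, 3 scalings, 3 limma variants, GC and length trends removed, and each library left out.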

Additional observations from a re-analysis of the deposited data

How the results depend on the processing

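Oxct1, Acat1, Bcat2, Bckdha and Bckdhb kept their direction in all 18 alternatives. With array weights Bckdhb stood at 0.40 and passed (1 member), as did Acss1, Mlycd, Hsd17b10, Bsg, Slc3a2, Pdk4 and Pdk2 among other named genes, and reversed were Bdh1 (0.11), Ppm1k (0.05), Ivd (0.18) and Slc16a1 (0.11). Removing the GC trend reversed Ppm1k (0.04), Ivd (0.02), Slc16a1 (0.10) and Mccc1 (0.05), and removing the length trend Ivd (0.09) and Mccc1 (0.0018). Size factors reversed Ivd (0.07), and rescaling to the same FPKM sum Bckdk (-0.01). With a library left out, log2 fold changes ran from -0.52 to 0.22 for Bdh1, -0.0046 to 0.13 for Bckdk, -0.44 to 0.09 for Ppm1k, -0.11 to 0.10 for Ivd and -0.31 to 0.18 for Slc16a1. The cause of these changes was not tested.

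The median over the 9 genes was 0.07 with size factors, -0.09 at the same sum, 0.11 with array weights, 0.09 with the length trend removed, and -0.11 to 0.11 with a library left out. Members at an unadjusted p under 0.05 numbered 1 with size factors, at the same sum and with the GC trend removed, and 0 to 3 with a library left out (0 without Ctrl-TAC 1 or Ctrl-TAC 2). Over all genes, 1 passed the adjusted threshold at a mean of 5 FPKM or more, 2 each with size factors, quantile normalization and the GC trend removed, 1016 with array weights, and 0 to 3 with a library left out. Genes higher at an unadjusted p under 0.05 numbered 433, and 790 with size factors, 907 with quantile normalization, 213 at the same sum, 924 with array weights, 701 and 797 with the GC and length trends removed, and 176 to 810 with a library left out. Genes lower numbered 1286, and 817 at the higher filter, 759 with quantile normalization, 2517 with array weights, 855 with the length trend removed, and 590 to 1905 with a library left out. Of the genes past that unadjusted threshold the share higher was 25.2%, and 46.7% with size factors, 54.4% with quantile normalization, 10.8% at the same sum, 43.2% and 48.2% once the GC or the length trend was removed.

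No paired analysis was possible because titles and library names number the VNS-TAC libraries differently, which leaves the columns untied to labelled replicates, and no label says that a number marks a shared animal, batch or day.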
